A study of Mus musculus with 13 samples.

Results

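Mesenchymal miR-199a, miR-214, miR-152 and miR-22 are described here across 13 primary abdominal neuroblastomas of mice. Their 6 measured mature forms are mmu-miR-199a-3p, mmu-miR-199a-5p, mmu-miR-214-3p, mmu-miR-214-5p, mmu-miR-152-3p and mmu-miR-22-3p (written below without the species prefix). They were chosen by name from the 1079 mouse miRNAs on the array, with no filter on level but with earlier results of these data known. The series is on TH-MYCN mice, in which a MYCN transgene under the rat tyrosine hydroxylase promoter acts in neural crest-derived cells and spontaneous neuroblastomas arise. The 6 tumours of the first group had wild type caspase-8 and no metastasis to the bone marrow, and the 7 of the second were caspase-8 deficient with metastasis to the bone marrow; they are called wild type and deficient below. Caspase-8 status and metastasis change together in these labels, so their parts in any difference cannot be told apart, and the labels state neither the age of the mice nor how caspase-8 was lost. Total RNA of each whole tumour was hybridised to a 1-colour Agilent array, so that in these bulk samples fewer cells of a type and less RNA per cell cannot be told apart.

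MicroRNAs are cut from a hairpin within a longer primary transcript. One arm of the hairpin, 5p or 3p, is loaded into Argonaute and guides it to messenger RNAs mainly through its seed, bases 2 to 8. miR-199a and miR-214 are known for expression in mesenchyme and fibroblasts and lie together in the non-coding transcript Dnm3os, which runs opposite to Dnm3. miR-152 belongs to the miR-148 family, whose known targets include the DNA methyltransferase Dnmt1, and miR-22 is a widely expressed miRNA. In the RefSeq annotation of GRCm38.p6, Mir199a-2 and Mir214 lay within Dnm3os and Dnm3, Mir199a-1 within Dnm2, Mir152 within Copz2 and Mir22 within Mir22hg. The array's headers name another build, so no coordinates are given.

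The mature sequences show which forms the seeds and the probes can separate. They are RefSeq's for GRCm38.p6, written 5′ to 3′ with the seed in capitals.
miR-199a-3p: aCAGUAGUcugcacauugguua
miR-199a-5p: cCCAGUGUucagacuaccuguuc
miR-214-3p: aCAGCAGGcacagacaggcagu
miR-214-5p: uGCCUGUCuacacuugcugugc
miR-152-3p: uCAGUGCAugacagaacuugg
miR-148a-3p: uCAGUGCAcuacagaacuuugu
miR-148b-3p: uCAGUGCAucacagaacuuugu
miR-22-3p: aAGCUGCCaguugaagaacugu
The 6 members had 6 different seeds. miR-152-3p shared its seed with miR-148a-3p and miR-148b-3p, from which it differed at 3 and 2 of 21 positions compared from the 5′ end. miR-199a-3p was identical to miR-199b-3p over all 22 bases, so its signal holds the product of Mir199b, which lay in Dnm1, as well. The seed of miR-214-3p was shared with miR-761, and the other members shared theirs with no other mature miRNA of the table. The sequence of miR-199b-5p was not compared here, so whether miR-199a-5p shares its seed is not covered by this.

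The 13 arrays each detected between 338 and 469 mouse miRNAs by the scanner software's own mark, fewest in wild-type replicate 2 (338) and deficient replicate 2 (375), and the 419 miRNAs with that mark on 6 or more arrays entered the test. They lay on 2 slides, with 2 wild-type and 5 deficient tumours on slide 1 and 4 and 2 on slide 2. Of the miRNAs known from particular cell types, 12 of 19 forms of neuroblasts and neurons on the array passed this filter, 10 of 16 of fibroblasts and smooth muscle, 2 of 2 of endothelium, 5 of 10 of leukocytes, 3 of 4 of red cells and 4 of 9 of skeletal muscle. Levels are log2 of array intensity after each array was scaled by its 75th percentile, with a floor at 4.10, and levels of different miRNAs come from different probes and are not compared.

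Of the 6 members, miR-199a-3p, miR-199a-5p and miR-22-3p were detected in all 13 tumours. miR-152-3p was detected in 12, all but wild-type replicate 2, and miR-214-3p in 11, all but replicate 2 of each group. miR-214-5p was detected in 5, wild-type replicates 3, 4 and 6 and deficient replicates 4 and 7, and so did not pass the filter. The opposite arm of miR-152, miR-152-5p, was detected on 0 arrays and miR-22-5p on 3. Thus 5 of the 6 members were tested.

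None of the 5 tested members passed the test for a difference between the groups. Of all 419 tested miRNAs 0 (0%) passed an adjusted p of 0.05 (limma with Benjamini-Hochberg adjustment over all 419, two-sided), and the smallest adjusted p was 0.448; 16 had an unadjusted p under 0.05, 10 higher and 6 lower in deficient tumours. Among the 5 tested members 4 had a higher mean in deficient tumours and 1 a lower one, with a median difference of 0.12, beside 227 higher, 192 lower and a median of 0.04 over all tested miRNAs. The median half-width of a 95% confidence interval over all tested miRNAs was 0.63 on the log2 scale.

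**Figure D1:**
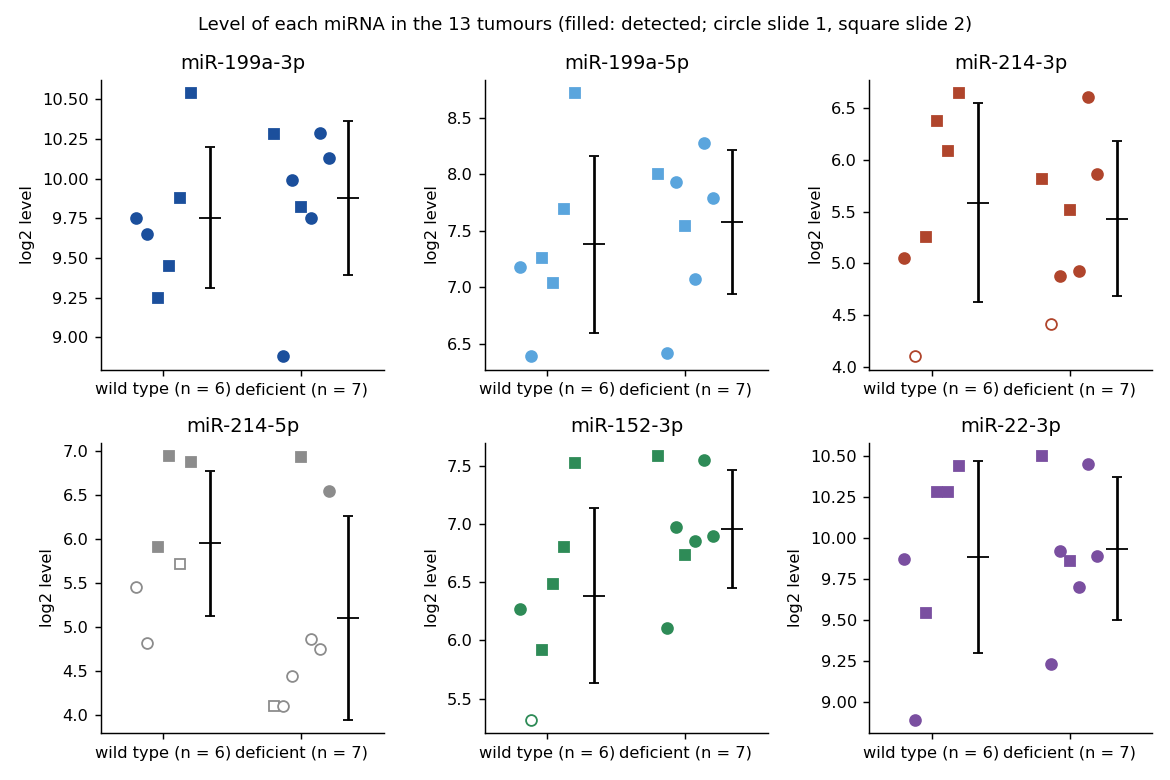
Log2 level (vertical axis, scaled array intensity) of each miRNA in the 6 wild-type and 7 deficient tumours; points are tumours, filled where detected, circles for slide 1 and squares for slide 2, and bars give mean ± SD. The groups overlap in every panel, and miR-214-5p is open in 8 of 13 tumours.

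miR-199a-3p is known to target genes such as Met and Mtor. Its log2 level in wild-type replicates 1 to 6 was 9.75, 9.65, 9.25, 9.45, 9.88 and 10.54. In deficient tumours it ranged from 8.88 through a median of 9.99 to 10.29. Deficient replicate 2 was the lowest of all and wild-type replicate 6 the highest, and the groups overlapped. Their means were 9.75 ± 0.45 (SD, n = 6) and 9.88 ± 0.48 (SD, n = 7), a difference of 0.12 on the log2 scale (SE 0.26, 95% confidence interval -0.44 to 0.68, limma adjusted p = 0.905).

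miR-199a-5p, the other arm of the same hairpins, has known targets among hypoxia and adhesion genes. It ranged from 6.39 in wild-type replicate 2 through a wild-type median of 7.22 to 8.72 in wild-type replicate 6. In deficient tumours the lowest, median and highest levels were 6.42, 7.79 and 8.28. The lowest tumour of each group was its replicate 2, and the deficient values lay within the wild-type range. The difference was 0.20 (SE 0.37, 95% confidence interval -0.60 to 0.99, limma adjusted p = 0.890), and -0.0019 without wild-type replicate 2.

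miR-214-3p, known to target Ezh2, was the tested member nearest the floor. Its level in wild-type replicates 1 to 6 was 5.05, 4.10, 5.26, 6.38, 6.09 and 6.65, the second of these at the floor. The deficient tumours spanned 4.41 to 6.61 with a median of 5.52. Wild-type replicates 4, 5 and 6 and deficient replicate 6 were the highest, so both groups reached the same level. The mean difference of -0.15 (SE 0.44, 95% confidence interval -1.09 to 0.78, limma adjusted p = 0.935) had no stable sign. The tumours of slide 1 gave 0.76, those of slide 2 gave -0.42, and a block for slide gave 0.19. Leaving out wild-type replicate 4 gave 0.0051, leaving out wild-type replicate 6 gave 0.059, and leaving out deficient replicate 2 gave 0.018.

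miR-152-3p had the largest difference among the tested members. Its wild-type levels were 6.27, 5.32, 5.92, 6.48, 6.80 and 7.52 in replicates 1 to 6. Deficient levels were 7.58, 6.11, 6.97, 6.73, 6.85, 7.55 and 6.90 in replicates 1 to 7. Only deficient replicate 2 was below the wild-type median of 6.37, while wild-type replicate 6 was close to the 2 highest deficient tumours. The means were 6.38 ± 0.75 (SD, n = 6) and 6.96 ± 0.50 (SD, n = 7), 1.49-fold higher in deficient tumours (difference 0.57, SE 0.33, 95% confidence interval -0.14 to 1.29, limma adjusted p = 0.589). With slide as a block the difference was 0.79 (95% confidence interval 0.06 to 1.52, limma adjusted p = 0.844). Within slides 1 and 2 it was 1.09 and 0.48. After another background correction, normexp, which here added 50 to every spot, it was 0.096. The part of this offset in the lower value was not tested.

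miR-22-3p was measured well above the floor in every tumour. Wild-type levels were 9.87, 8.89, 9.54, 10.28, 10.28 and 10.44 in replicates 1 to 6. Deficient tumours ranged from 9.23 in replicate 2 through 9.89 to 10.50 in replicate 1. The means, 9.88 ± 0.59 (SD, n = 6) and 9.93 ± 0.44 (SD, n = 7), differed by 0.05 (SE 0.28, 95% confidence interval -0.55 to 0.65, limma adjusted p = 0.973). The sign turned when 1 of 4 tumours was left out: wild-type replicate 2 (-0.15), wild-type replicate 3 (-0.018), deficient replicate 1 (-0.044) or deficient replicate 6 (-0.035). Its 2 probes lay on either side of equality, with deficient over wild-type ratios of 0.931 and 1.04.

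miR-214-5p was mostly below detection and is given as values. Its level was 5.45, 4.82, 5.91, 6.94, 5.71 and 6.87 in wild-type replicates 1 to 6 and 4.10, 4.10, 4.44, 6.93, 4.86, 4.75 and 6.55 in deficient replicates 1 to 7. Deficient replicates 1 and 2 were at the floor, deficient replicate 4 was next to the highest wild-type tumour, and deficient replicate 7 was above 4 of the 6 wild-type tumours. The means of 5.95 and 5.10 differed by -0.84 with no test. The difference was -0.085 with 4 times the floor, -0.17 from the total gene signal, -0.20 with normexp and -0.19 within slide 1. Its 4 probes each had a ratio of deficient to wild type between 0.511 and 0.661.

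**Figure D2:**
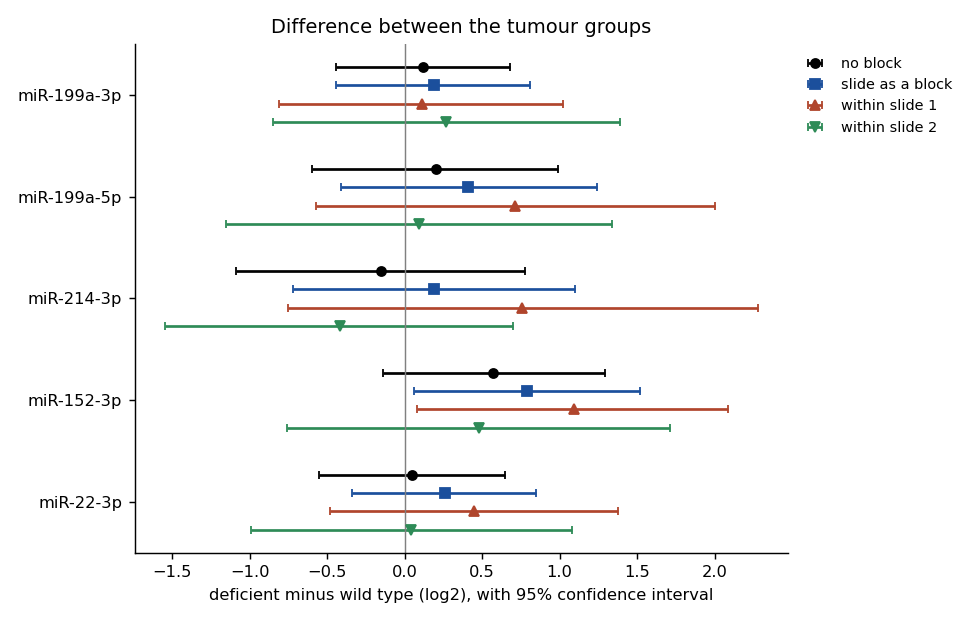
Difference in log2 level, deficient minus wild type, of the 5 tested miRNAs with 95% confidence intervals (horizontal axis), without a block, with slide as a block and within each slide. Every interval without a block includes 0. The intervals, unadjusted, of miR-152-3p lie above 0 with slide as a block (0.06 to 1.52, limma adjusted p = 0.844) and within slide 1 (0.08 to 2.09, limma adjusted p = 0.539). Slide 1 holds 2 wild-type tumours.

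The spots and probes behind each value were compared. Between 6 and 20 spots were averaged per probe and array, and the standard error over spots was a median of 0.76% of the signal for miR-199a-3p, 0.79% for miR-22-3p and 5.81% for miR-214-5p. The coefficient of variation over tumours was 29.8%, 30.8% and 85.6% for the same miRNAs. Probes of one member correlated over the tumours at r from 0.95 to 0.998.

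The log2 level of 3p minus that of 5p was taken within each tumour and compared between the groups. The miR-199a-3p signal also holds the identical miR-199b-3p, so for miR-199a this is not the proportion of its own 2 arms alone. For miR-199a the log2 level of 3p minus that of 5p averaged 2.37 ± 0.51 (SD) over the 6 wild-type tumours and 2.30 ± 0.23 (SD) over the 7 deficient ones (difference -0.07, two-sided exact permutation p = 0.770 over 1716 splits). The highest value, 3.26, was that of wild-type replicate 2, and the other tumours lay between 1.83 and 2.68. In wild-type replicate 2 miR-199b-5p was also highest (9.73), and the part of Mir199b in this value was not tested. For miR-214 the same quantity was -0.36 ± 0.41 (SD, n = 6) and 0.33 ± 1.18 (SD, n = 7) (difference 0.69, exact permutation p = 0.213). Both miR-214 arms were detected in only 5 tumours, and the difference moved with 1 tumour and with the processing. It was 0.98 without deficient replicate 4, itself at -1.41 (exact permutation p = 0.0476), 2.66 as a mean of log2 probe levels (exact permutation p = 0.0997), 0.020 with 4 times the floor (exact permutation p = 0.910), 0.067 with normexp (exact permutation p = 0.527) and 0.077 from the scanner's total gene signal (exact permutation p = 0.909).

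**Figure D3:**
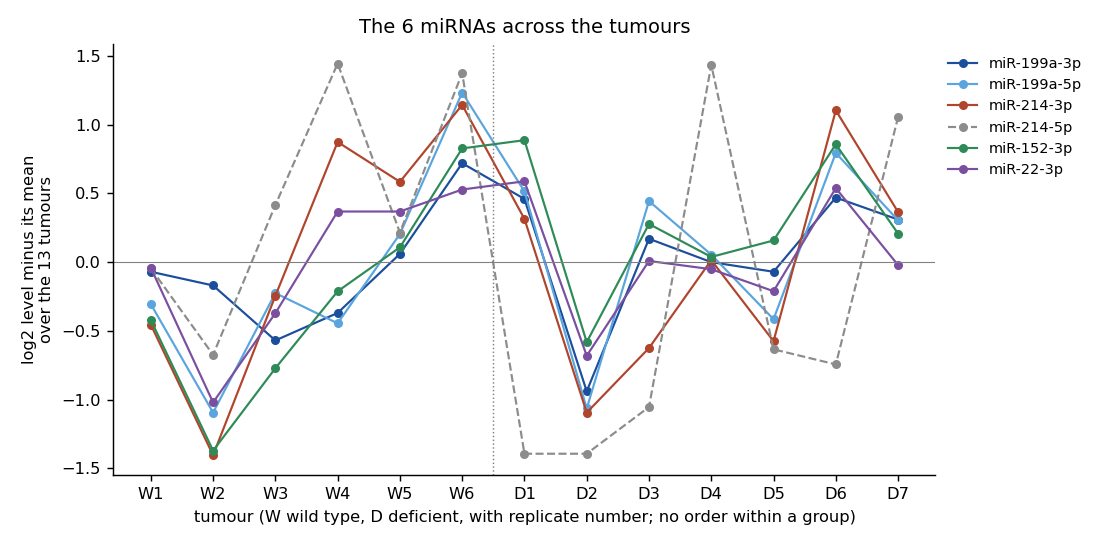
Log2 level of each miRNA minus its own mean over the 13 tumours (vertical axis) for the wild-type (W1 to W6) and deficient (D1 to D7) tumours. The 5 tested miRNAs are below their means in replicate 2 of both groups, miR-199a-3p least so in W2, and are high in W6 and D6, while miR-214-5p, dashed, follows another course.

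Across the tumours the 5 tested members varied together. Wild-type replicate 2 was among the lowest 4 of 13 tumours for every one of them and deficient replicate 2 among the lowest 3. Deficient replicate 6 ranked 12 of 13 for all 5 and wild-type replicate 6 between 11 and 13. The 10 pairs without miR-214-5p had Pearson's r from 0.60 to 0.90 with a median of 0.80, where all 87571 pairs of tested miRNAs had a median of 0.00 and a 95th percentile of 0.73. All 10 had a permutation p of r under 0.05 after adjustment over the 15 pairs computed, and the 5 pairs with miR-214-5p did not; for rho, miR-214-3p missed it with miR-199a-3p (adjusted permutation p = 0.0509) and miR-152-3p (adjusted permutation p = 0.0706).

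The 2 arms of miR-199a correlated at r = 0.86 (permutation p = 0.00023, adjusted p = 0.00086, n = 13) and Spearman's rho = 0.92 (permutation p = 4e-05, adjusted p = 6e-04). miR-214-3p went with miR-22-3p, which lies in another gene, at r = 0.90 (permutation p = 4e-05, adjusted p = 0.00045) and rho = 0.80 (permutation p = 0.0016, adjusted p = 0.0049). With normexp this r was 0.08. The r of miR-214-3p with the arms of miR-199a, whose second locus it shares, was 0.77 for miR-199a-5p (permutation p = 0.0024, adjusted p = 0.0051) and 0.60 for miR-199a-3p (permutation p = 0.0293, adjusted p = 0.0439). The last of these was 0.34 without deficient replicate 2 and wild-type replicate 6, the 2 tumours farthest from the median of miR-199a-3p. It was 0.54 without wild-type replicates 2 and 6, the 2 farthest from the median of miR-214-3p, and 0.49 to 0.74 with 1 tumour left out. Its size thus depended on which tumours were left out, and leaving out extremes narrows the range and can itself lower r. Pairs from different genes had r as high: miR-199a-5p reached r = 0.88 with miR-152-3p (permutation p = 9e-05, adjusted p = 0.00045) and 0.83 with miR-22-3p (permutation p = 0.00047, adjusted p = 0.0014), and miR-152-3p with miR-22-3p 0.87 (permutation p = 8e-05, adjusted p = 0.00045). Within slide 1 the median r of the 10 pairs was 0.86, where the 95th percentile over all pairs was 0.81, and 7 pairs passed. Within slide 2, with 6 tumours, it was 0.77, below the 95th percentile of 0.87 there, and 0 pairs passed.

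The array's overall brightness moved with these levels. Although each array had been divided by its 75th percentile, r with the log2 of that percentile was 0.71 for miR-199a-3p, 0.84 for miR-199a-5p, 0.70 for miR-214-3p, 0.83 for miR-152-3p and 0.76 for miR-22-3p (permutation p from 0.00041 to 0.00803, adjusted over 18 relations 0.00441 to 0.0207). Over all 419 tested miRNAs the median of that r was -0.01 and the 95th percentile 0.61. After the percentile had been fitted and its part removed, the median r of the 10 pairs was 0.51, and 1 of 15 pairs, miR-214-3p with miR-22-3p at 0.79 (permutation p adjusted over the 15 pairs = 0.0222), passed. With normexp, a planned setting in which the percentile was not fitted, that pair had r = 0.08. Normexp here added 50 to every spot, while the 2 probes of miR-214-3p had scaled wild-type means of 13.3 and 41.8. The part of this offset in the r of 0.08 was not tested. With the number of detected miRNAs, r was 0.70 for miR-214-3p, 0.65 for miR-152-3p and 0.73 for miR-22-3p (adjusted permutation p = 0.0207, 0.0356 and 0.0181). It was 0.42 for miR-199a-3p and 0.53 for miR-199a-5p (adjusted permutation p = 0.219 and 0.103), beside a 95th percentile of 0.54 over all tested miRNAs. Without the tumour of each group with the fewest detected miRNAs the median r was 0.71, and 5 pairs passed; with the number of detected miRNAs fitted in all 13 tumours it was 0.75, and 8 pairs passed. The 3 settings that fitted a measure or left out tumours were, unlike normexp, chosen after seeing the data. In them the 95th percentile of r over all pairs of tested miRNAs was 0.74 with the 75th percentile fitted, 0.76 without these tumours and 0.75 with the number detected fitted.

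**Figure D4:**
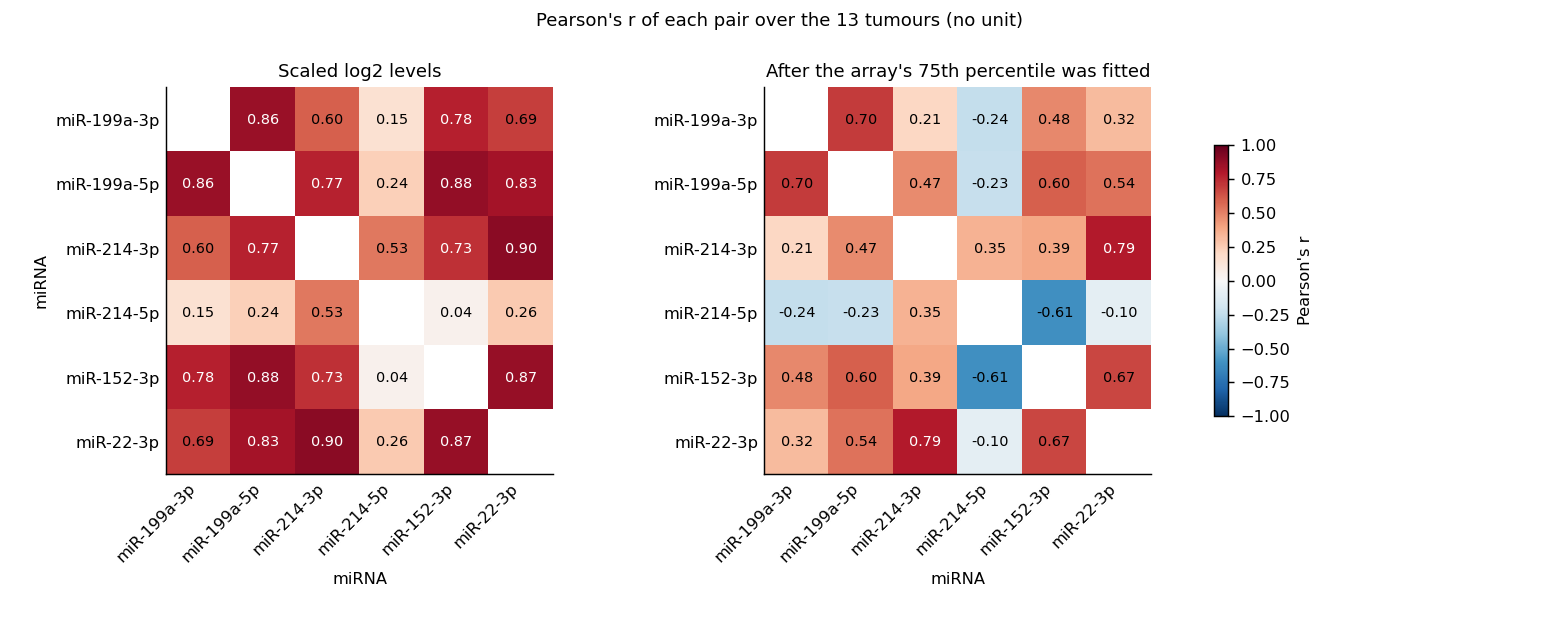
Pearson's r of each pair of the 6 miRNAs over the 13 tumours, on the scaled log2 levels (left) and on residuals after the array's log2 75th percentile was fitted (right); colour runs from -1 to 1. The median over the 10 pairs without miR-214-5p is 0.80 on the left and 0.51 on the right.

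The miRNAs outside the members with the most similar pattern, by Pearson's r over the 13 tumours among all tested miRNAs, were largely shared by them; they were picked for their r, so no p is given. miR-143-3p, a smooth muscle and fibroblast miRNA, had r = 0.89 with miR-199a-3p, 0.90 with miR-199a-5p and 0.88 with miR-152-3p. miR-140-5p, known from cartilage and mesenchyme, had 0.86, 0.94 and 0.87 with the same members, and miR-140-3p reached 0.94 with miR-199a-5p, 0.89 with miR-152-3p and 0.86 with miR-22-3p. miR-193-3p completed the set of miR-199a-3p at 0.89. miR-214-3p and miR-22-3p had others in front: miR-221-3p at 0.90 and 0.94, and miR-21-5p at 0.84 and 0.86, with miR-23a-3p at 0.82 for miR-214-3p. The r of miR-23a-3p with miR-214-3p was 0.88 within slide 1 and 0.26 within slide 2. The other r named here were 0.66 or more within slide 2. The r with these neighbours were not computed with the array's overall brightness fitted, and the part of that brightness in them was not tested.

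miR-214-5p had different neighbours from its partner arm. Its nearest were miR-3097-5p at r = 0.99 and miR-466a-5p and miR-466p-5p, both at 0.97. Of its 20 nearest tested miRNAs 7 were of the miR-297, miR-466, miR-467 and miR-669 families, which have 24 forms among the 419 tested, and of the 20 nearest of each other member 0 were. It had r = 0.88 with the array's probes for the viral mghv-miR-M1-2-5p, a form not of the mouse, where the other members had 0.02 to 0.47. With miR-214-3p its r was 0.53 (permutation p = 0.0669, adjusted p = 0.0912 over the 15 pairs), rank 58 among its 419 partners.

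For other forms of these families, none of 4 r with members passed the test. miR-199b-5p was detected in all 13 tumours at 8.24 to 9.73 and was highest in wild-type replicate 2, where miR-199a-5p was lowest. Its r was -0.08 with miR-199a-5p (permutation p = 0.794, adjusted p over 4 relations = 0.900) and 0.36 with miR-199a-3p (permutation p = 0.225, adjusted p = 0.579; 0.13 within slide 1 and 0.69 within slide 2). miR-152-3p had r = 0.04 with its seed partner miR-148a-3p (permutation p = 0.900, adjusted p = 0.900) and 0.32 with miR-148b-3p (permutation p = 0.290, adjusted p = 0.579), which was 0.76 without the 2 tumours farthest from the median of miR-152-3p. The differences between groups were 0.29 for miR-199b-5p (SE 0.25), 0.58 for miR-148a-3p (SE 0.32) and -0.09 for miR-148b-3p (SE 0.21), with limma adjusted p of 0.668, 0.589 and 0.915. miR-148a-5p, miR-148b-5p and miR-761 were detected on 0 arrays.

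Markers of other cells were read beside the members as mean centred log2 levels of each list. Among the tested forms of the fibroblast and smooth muscle list are miR-143-3p, miR-140-5p, miR-140-3p and miR-21-5p, named above as nearest to members. The r of this list therefore repeats part of that result and is not separate support. The fibroblast and smooth muscle list had r with the 5 tested members from 0.72 (miR-199a-3p) to 0.91 (miR-22-3p), with permutation p adjusted over 36 relations of 9e-04 to 0.0223, and 0.34 with miR-214-5p. These were 0.61 to 0.82 without replicate 2 of each group. Its level ran from -0.64 to 0.49 in wild-type and -0.64 to 0.50 in deficient tumours, with both minima in replicate 2, and 5 of its 10 tested forms were higher and 5 lower in deficient tumours, with 0 past the threshold and a median of -0.03. The endothelial list, both arms of miR-126, had r of 0.80 with miR-199a-3p and 0.74 with miR-152-3p (adjusted permutation p = 0.0078 and 0.0185). With miR-199a-5p and miR-22-3p its r was 0.69 each (adjusted permutation p = 0.0296 for both), and with miR-214-3p 0.48 (adjusted permutation p = 0.196). Without replicate 2 of each group r was 0.65 for miR-199a-3p, 0.74 for miR-152-3p, 0.42 for miR-199a-5p and 0.47 for miR-22-3p. Both forms of the endothelial list had higher means in deficient tumours (median 0.35). All 3 tested forms of the red cell list averaged higher in the deficient group (median difference 0.95, 0 past the threshold), and the list had r = 0.74 with miR-152-3p (adjusted permutation p = 0.0185). Leukocyte miRNAs had r = 0.79 with miR-22-3p (adjusted permutation p = 0.0078) and 0.67 with miR-214-3p (adjusted permutation p = 0.0368), within slide 2 0.63 and 0.36. For skeletal muscle, r with the 6 members ran from -0.07 to 0.39, and for the neuroblast and neuron list, which had 4 forms higher and 8 lower and a median of -0.20, from -0.36 to 0.06. The r of these lists with the members were not computed with the array's overall brightness fitted. That brightness moved with all 5 tested members, and its part in these r was not tested. The part of each cell type in the members' levels was not tested either.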

How the data were processed

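RNA of 13 tumours, 1 array each, was measured on Agilent mouse miRNA arrays. The deposited scanner files give spot intensity, background-subtracted on each array, with yes or no marks of another kind (detected, outlier), per the file headers, which name Feature Extraction 10.7.3.1; the submitters' processing notes name 10.5.1.1. The deposited series matrix holds log2 values made equal in distribution across arrays, with method unstated, a median of 3.82 in every column and centring unknown.

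Spots without outlier marks were averaged per probe and summed per miRNA, scaled on each array to the 75th percentile of the 294 miRNAs detected everywhere, set to a floor of 17.2 and taken to log2. limma 3.58.1 (R 4.3.3) tested 419 miRNAs detected on at least 6 arrays. Correlations used 100000 permutations (smallest possible p 1e-05), with Benjamini-Hochberg adjustment over each family, and arms an exact permutation test. No spot was saturated on any array. Precision is limited by how many arrays there are. The labels call the tumours biological replicates. Slide was read from the array number. Planned normexp correction used median spot signals, since the files hold no mean. It added an offset of 50 to every spot before averaging, summing and scaling. Named miRNAs were the members, other forms of their hairpins and families, and the 3 nearest by r. The fit was tested on simulated data. The members and lists were chosen with earlier results of these data known. Alternatives were scaling, background, floor, filter, slide and leaving out each tumour.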

Additional observations from a re-analysis of the deposited data

Results flagged for a closer look

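The level of miR-199a-3p in deficient replicate 2, 8.88, stood apart from the other 6 deficient tumours, the lowest of which was 9.75. Its gap to that tumour was 0.62 of the group's whole range. It was 1 of 16 groups of values examined for such a gap, and about 1 in 20 would show one by chance. The same tumour had 375 detected miRNAs, the fewest of its group.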

How the results depend on the processing

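Every setting kept 0 of the tested miRNAs past the adjusted p of 0.05. miR-152-3p and miR-199a-3p kept their direction in all settings run; leaving out 1 tumour gave 0.36 to 0.80 and 0.023 to 0.29. Without scaling the median over all tested miRNAs was 0.22 in place of 0.04. With 1 tumour left out, miR-199a-5p took values of -0.0019 (wild-type replicate 2 left out) to 0.46 and miR-22-3p of -0.15 (the same tumour) to 0.17; miR-22-3p was -0.029 without the 2 tumours with fewest detected miRNAs. miR-214-3p was 0.39 as a mean of log2 probe levels, 0.032 without a floor, 0.19 with slide as a block and 0.76 within slide 1, and -0.45 to 0.059 with 1 tumour left out. miR-214-5p, untested, was -2.27 as a mean of log2 probe levels, -3.52 without a floor, -0.085 with 4 times the floor, -0.17 from total gene signal, -0.20 with normexp, -0.19 within slide 1 and -1.15 to -0.65 with 1 tumour left out. The arm difference of miR-199a was 0.081 with normexp, 0.18 within slide 2 and -0.18 to 0.11 with 1 tumour left out, and that of miR-214 0.020 (4 times the floor) to 2.66 (mean of log2 probe levels) over the settings, and 0.44 to 0.98 with 1 tumour left out. The cause was not tested for any of these.

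Of 15 pairs, 10 passed in the main setting, 4 with normexp, 6 with 4 times the floor, 0 within slide 2 (6 arrays), 5 without the 2 tumours with fewest detected miRNAs, 1 after the 75th percentile was fitted, 8 after the number detected was fitted, 6 without the 2 tumours farthest from the median, and 8 to 10 with 1 tumour left out. With normexp, miR-214-3p had r = -0.15 with miR-199a-3p, 0.15 with miR-199a-5p, 0.08 with miR-22-3p and 0.43 with miR-152-3p. The other pairs of tested members had 0.56 to 0.84 there. The part of the offset of 50 per spot in the r with normexp was not tested. The r of miR-214-5p with miR-214-3p stayed positive in every setting run. It was 0.58 with normexp, 0.30 within slide 2, 0.22 after the number detected was fitted and 0.44 to 0.68 with 1 tumour left out. The other pairs of miR-214-5p changed sign. With miR-199a-3p r was -0.047 with the percentile over all miRNAs, -0.58 with normexp, -0.21 within slide 2, -0.19 without the 2 tumours with fewest detected miRNAs, -0.24 and -0.11 after the 75th percentile or the number detected was fitted, -0.44 without the 2 farthest tumours and -0.13 to 0.30 with 1 left out. With miR-199a-5p it was, in the same order from normexp on, -0.43, -0.13, -0.089, -0.23, -0.079 and -0.054. With miR-152-3p it was, in the order from the percentile over all miRNAs to the number detected, -0.16, -0.37, -0.33, -0.32, -0.61 and -0.53, and -0.12 to 0.23 with 1 left out. With miR-22-3p it was, in that same order, -0.0021, -0.51, -0.27, -0.094, -0.10 and -0.27.

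The replicate numbers did not pair the tumours: same-numbered tumours' deviations correlated at -0.22 to 0.19, 3 of 6 above 0.1. With the replicate number as a block, which drops deficient replicate 7, differences were 0.082 (miR-199a-3p), 0.16 (miR-199a-5p), -0.22 (miR-214-3p), -1.08 (miR-214-5p), 0.58 (miR-152-3p) and 0.057 (miR-22-3p), with 0 calls.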
